A study of Citrus x clementina and Citrus japonica with 6 samples.

Results

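The Calvin cycle and photorespiration were described through 102 of the 30139 gene models in the deposited table. A model was taken as a member when its first KEGG orthology name held one of a set of name patterns for enzymes of the reductive pentose phosphate cycle and of photorespiration, and levels were not used to choose it. The members carried 16 first names, and the patterns also took in names outside the pathways, among them 2-phosphoglycerate kinase and a non-phosphorylating glyceraldehyde-3-phosphate dehydrogenase. The tissue was untreated fruit from the fields of 1 breeding centre. The species were kumquat, a small-fruited relative of the oranges (Citrus japonica in the labels, Fortunella japonica in the series title), and, as the species it is set against, Clementine mandarin (Citrus x clementina), called clementine here. RNA-seq gave 3 libraries for kumquat and 3 for clementine, each from fruit of 5 stages combined. In both species the first stages were 15, 30 and 45 days after flowering. The last stages were 80 and 120 days in kumquat and 100 and 180 days in clementine, so species and the age of the last stages cannot be told apart. The stage label of the kumquat libraries names Clementine mandarin, while their species and cultivar labels name kumquat. Fruit came from 3 plants, per the series' design text, and no label ties a library to a plant.

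In the Calvin cycle, Rubisco joins carbon dioxide to ribulose-1,5-bisphosphate, the product is reduced to triose phosphate, and a chain of aldolases, phosphatases and transketolase rebuilds the acceptor, which phosphoribulokinase finally phosphorylates. When Rubisco takes oxygen in place of carbon dioxide, phosphoglycolate is formed, and photorespiration returns its carbon to the cycle through glycolate, glyoxylate, glycine, serine and glycerate, in chloroplasts, peroxisomes and mitochondria. Young citrus fruit has a green peel with chloroplasts. Several of these enzymes also have forms in the cytosol that serve glycolysis and sugar synthesis, and the KEGG names used here do not separate the compartments.

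The libraries were alike in their totals. Summed FPKM (a level scaled to transcript length and library total) ran from 691560 to 707892 per library. Models above 0 numbered 25523 to 25807 in kumquat libraries and 26050 to 26285 in clementine libraries, without overlap. The smallest steps between low values gave relative depths of 0.874 to 0.923 in kumquat and 0.963 to 1.01 in clementine. By this estimate every kumquat library was shallower than every clementine library. The part of depth in low values and in values of 0 was not tested. Over models, Pearson's r of log2(FPKM + 1) ran from 0.969 to 0.979 for libraries of one species and from 0.81 to 0.816 for libraries of different species. Together the 102 members made up 0.729% to 0.746% of the summed FPKM in kumquat libraries and 0.821% to 0.830% in clementine libraries, with no overlap.

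At the level of whole enzyme names, 13 of the 16 sums differed between the species: 9 were lower and 4 higher in kumquat. Over the whole table, 64.0% of 3615 name sums were called, 26.4% lower and 37.6% higher. A sum counts as called where limma, fitted to log2(FPKM + 1) over all sums, gave an adjusted p (Benjamini-Hochberg) below 0.05, and log2 changes are kumquat minus clementine. The largest falls were in sedoheptulose-bisphosphatase, the non-phosphorylating NADP+ glyceraldehyde-3-phosphate dehydrogenase, glycine hydroxymethyltransferase and transketolase. The Rubisco small chain, the most abundant name, was not called. With each library scaled to its median log ratio, 1 sum was higher and 9 were lower.

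**Figure D1:**
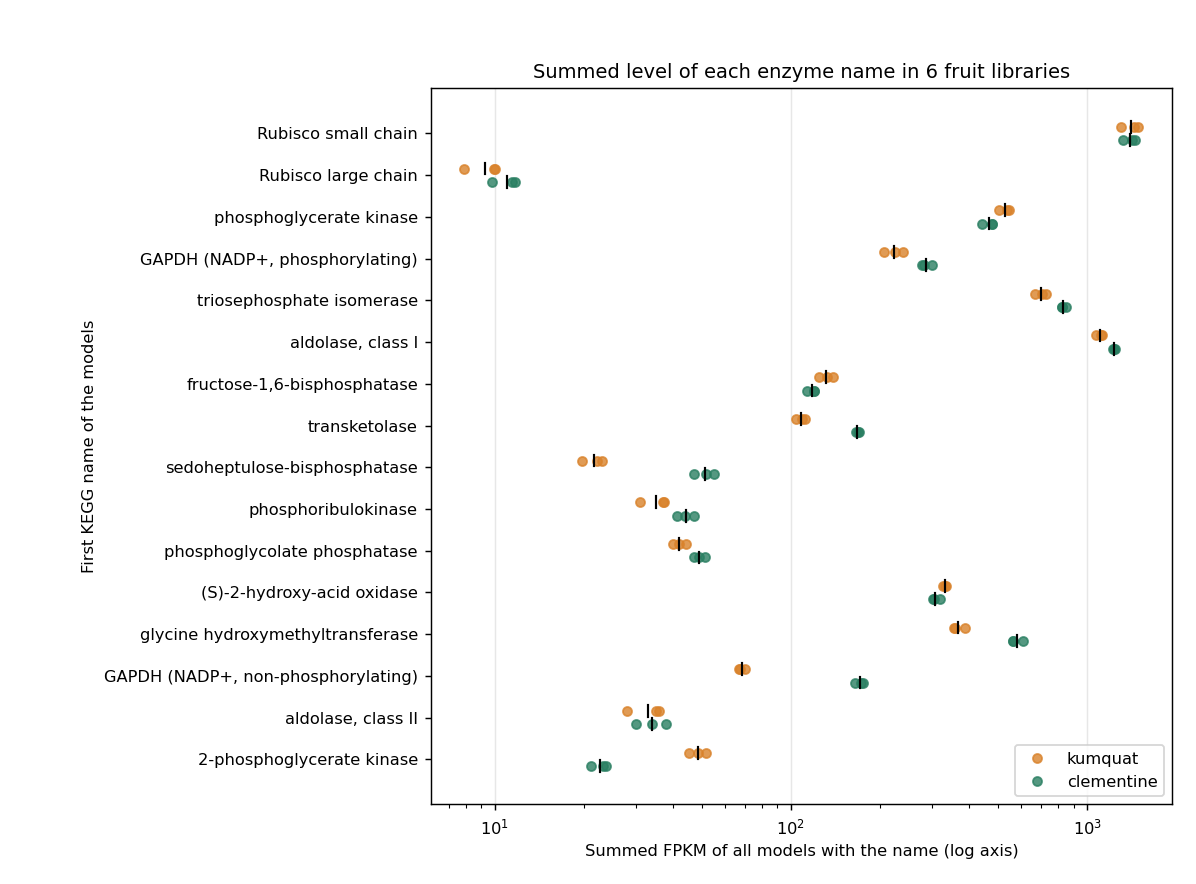
Summed FPKM of all models with each first KEGG name (log axis), one point per library, kumquat above clementine, with a black tick at the mean of 3 libraries. Sedoheptulose-bisphosphatase averaged 21.7 FPKM in kumquat and 51.3 FPKM in clementine, while the points of the Rubisco small chain, near 1400 FPKM (means 1407 and 1392), overlap.

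Of the 102 member models, 72 had at least 1 FPKM in at least 3 libraries and were tested. Of these 46 (63.9%) were called, against 57.1% of the 22050 models tested in the whole table, so the share of members called was near the background. Of these calls, 21 were higher in kumquat and 25 lower, and 17 (23.6%) changed by 2-fold or more, 7 of them higher and 10 lower, beside 24.5% of all models (12.4% higher and 12.1% lower). The median log2 change of the 72 was -0.10, beside 0.04 for all models tested. The libraries of the species did not overlap for 51 of the 72 (70.8%), beside 63.9% of all models tested. The other 30 members were at low levels: 15 were below 1 FPKM in every library, and the highest single value among the 30 was 9.68 FPKM. Among these 30, 7 were listed at 0 in all kumquat libraries and 6 in all clementine libraries. Of the tested members, 5 had every library of one species below 1 FPKM, so they entered the test through the other species alone. All 5 were called, 3 higher and 2 lower in kumquat, and they are part of the counts above and of those by GO term below. Ciclev10011215m, Ciclev10015533m and Ciclev10027460m among them are also in the 2-fold count.

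The annotation of the members was uneven. A matching Gene Ontology (GO) term, meaning one for the reaction of the named enzyme, was carried by 58 members and not by the remaining 44. This split was made from the annotation after values had been seen. Of the 43 tested members with the term, 21 (48.8%) were lower in kumquat and 9 (20.9%) higher, beside 27.1% and 29.9% of all models, with a median log2 change of -0.32. Of the 29 tested members without the term, 4 (13.8%) were lower and 12 (41.4%) higher, with a median of 0.10. The difference between these sets was not tested. Summed over models with the term alone, 12 enzyme names could be tested. Of these, 10 were lower in kumquat, 1 was higher (phosphoglycerate kinase) and the Rubisco small chain was not called. In the whole table fitted this way, 26.4% of sums were lower and 37.6% higher. A single locus could set the direction: 7 of the 10 lower sums held more than 1 locus, and in 3 of these 7 (the oxidase, fructose-1,6-bisphosphatase and the NADP+ phosphorylating dehydrogenase) the rest had the larger mean in kumquat once the locus with the largest difference was left out, a comparison of means with no test, added after values had been seen. With median scaling the 10 sums were again lower and none was higher, since phosphoglycerate kinase had a log2 change of 0.12 with an adjusted p of 0.0686.

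Markers of other cell types also differed between the libraries. Of 64 green-tissue models (light-harvesting and photosystem proteins), 53 were tested, 28 (52.8%) were lower in kumquat and 6 (11.3%) higher, with a median log2 change of -0.39. Their summed level was 9674 to 10844 FPKM in kumquat and 11337 to 12494 FPKM in clementine, and 4 of them were listed at 0 in all kumquat libraries and 1 in all clementine libraries. All 3 models on the seed list, 2 named as late embryogenesis abundant and 1 as vicilin, were higher in kumquat, beside 29.9% of all models tested. The list held no oleosin, legumin, 11S globulin or 2S albumin model. Whether the late embryogenesis abundant models mark seed cells in this fruit was not tested. The 3 models summed to 2468 to 2971 FPKM in kumquat and 644 to 808 FPKM in clementine. Most of this was Ciclev10006308m, a late embryogenesis abundant model with 2618 ± 253 FPKM in kumquat and 701 ± 85.5 FPKM in clementine. The sums without this model, picked after its values were seen, were 118 ± 1.09 FPKM in kumquat and 36.8 ± 2.91 FPKM in clementine. Of 38 vascular wall models, 27 were tested. Of these 18 (66.7%) were lower and 5 (18.5%) higher in kumquat, beside 27.1% and 29.9% of all models tested. The 38 models summed to 515 to 592 FPKM in kumquat and 341 to 361 FPKM in clementine. A single laccase model, Ciclev10011377m, carried the kumquat sum with 365 ± 45.8 FPKM in kumquat and 1.18 ± 0.712 FPKM in clementine. Without it, a model picked after its values were seen, the sums turned to 179 ± 5.93 FPKM in kumquat and 347 ± 10.8 FPKM in clementine. These sums still hold Ciclev10009466m, listed by its protein match to cellulose synthase but with the KEGG name p24 family protein beta-1. It averaged 63.8 ± 5.66 FPKM in kumquat and 83.0 ± 4.2 FPKM in clementine. The part of these markers in the members' values was not tested. In such bulk tissue, fewer cells of a type and less RNA per cell cannot be told apart.

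**Figure D2:**
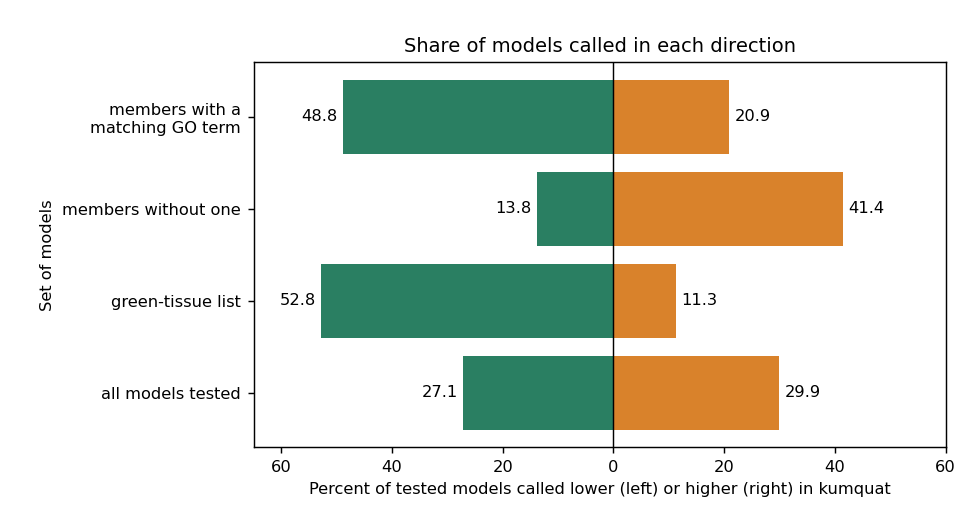
Percent of tested models called lower (left) or higher (right) in kumquat, for members with and without a matching GO term, the green-tissue list and all models tested. Members with the term had 48.8% lower and 20.9% higher, the green-tissue list 52.8% lower and 11.3% higher, and members without it had 13.8% lower and 41.4% higher.

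Most of the summed small-chain level came from 1 model. Rubisco is built of large chains, which plants encode in the chloroplast genome, and small chains, which they encode in the nucleus. Ciclev10012893m, a small-chain model, held a mean of 97.5% of the summed small-chain FPKM in kumquat and 95.3% in clementine, and it ranked 22nd of all models by mean level. It had 1258.88, 1399.03 and 1457.09 FPKM in kumquat, against 1245.25, 1381.65 and 1351.17 FPKM in clementine. These values overlap, and the log2 change of 0.05 ± 0.0764 (SE) had an adjusted p of 0.62.

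The minor small-chain models differed far more. Ciclev10009532m had 2.19, 1.88 and 0.78 FPKM in kumquat, against 36.37, 26.51 and 26.63 FPKM in clementine. It was lower in every kumquat library, and its log2 change of -3.59 ± 0.243 was the lowest of the tested members (limma, adjusted p = 1.61e-05). Ciclev10013055m, which shares a locus tag with Ciclev10012893m, was also lower, at 1.17 ± 0.520 FPKM in kumquat and 5.02 ± 1.45 FPKM in clementine (SD, n = 3 each; limma, adjusted p = 0.00217). The models Ciclev10009706m and Ciclev10009707m, a pair with the same protein match, moved in opposite directions. Ciclev10009706m had 9.59, 17.62 and 18.14 FPKM in kumquat, against 27.76, 33.83 and 29.83 FPKM in clementine, a log2 change of -1.01. Ciclev10009707m had 23.15, 17.71 and 11.15 FPKM in kumquat, against 0, 0 and 1.35 FPKM in clementine, a log2 change of 3.73. Summed, the pair had 32.5 ± 3.03 FPKM in kumquat and 30.9 ± 3.04 FPKM in clementine, which overlap (log2 change 0.07, limma adjusted p = 0.553).

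Models with the large-chain name were at low levels. Whether they stand for the chloroplast gene was not tested. Ciclev10017034m, the more abundant of 2 models with this name and one without a matching GO term, had 6.96, 9.27 and 10.06 FPKM in kumquat, against 11.53, 11.26 and 9.82 FPKM in clementine. The groups overlapped and the model was not called (log2 change -0.29, adjusted p = 0.133). Ciclev10006268m, the other model, stayed below 1 FPKM in all 6 libraries.

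The reduction phase split between its enzymes. Phosphoglycerate kinase, which phosphorylates 3-phosphoglycerate and also works in glycolysis, summed to 528 ± 20.8 FPKM in kumquat and 465 ± 20.4 FPKM in clementine (SD, n = 3 each), a log2 change of 0.18 that was called higher in kumquat (limma, adjusted p = 0.00734). With median scaling its log2 change was 0.12, and the call was lost (adjusted p = 0.0689). Ciclev10005101m supplied most of this sum, with 437, 474.96 and 467.04 FPKM in kumquat, against 343.36, 371.24 and 374.99 FPKM in clementine. It was higher in every kumquat library (log2 change 0.34 ± 0.0590, adjusted p = 0.00197). Ciclev10004891m, a less abundant kinase model, went the other way and was lower in every kumquat library, at 63.3 ± 2.16 FPKM in kumquat and 96.8 ± 3.87 FPKM in clementine (log2 change -0.60, adjusted p = 7.89e-05). Ciclev10011215m was at 1.19, 1.31 and 1.6 FPKM in kumquat and was listed at 0 in all clementine libraries. The 3 models of its locus, which also carry a tRNA methyltransferase GO term, summed to 5.20 ± 0.759 FPKM in kumquat and 5.34 ± 0.495 FPKM in clementine, without a call (log2 change -0.04, adjusted p = 0.829).

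The NADP+ phosphorylating glyceraldehyde-3-phosphate dehydrogenase, the enzyme that makes triose phosphate in chloroplasts, was lower in kumquat. Its sum was 223 ± 16.1 FPKM in kumquat and 286 ± 12 FPKM in clementine (log2 change -0.36, limma adjusted p = 0.000485). Ciclev10015476m had 84.95, 81.36 and 85.18 FPKM in kumquat, against 180.09, 178.6 and 162.7 FPKM in clementine. No kumquat library reached a clementine one, and the log2 change was -1.04 ± 0.0575 (adjusted p = 6.03e-06). Ciclev10001114m, the second model of the enzyme, had 120.21, 142.3 and 153.05 FPKM in kumquat, against 100.38, 120.16 and 113.43 FPKM in clementine. It was called higher (log2 change 0.31, adjusted p = 0.0355), but the call was lost with median scaling (adjusted p = 0.0663) and without kumquat replicate 2 (0.0943), kumquat replicate 3 (0.108), clementine replicate 1 (0.102) or clementine replicate 3 (0.0697). Ciclev10015476m thus held 37.8% of the enzyme's sum in kumquat and 60.7% in clementine.

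The non-phosphorylating NADP+ form, known in plants as a cytosolic enzyme that yields NADPH outside the cycle, was brought in by its name and had the lowest log2 change of any member name. Its sum was 68.2 ± 1.79 FPKM in kumquat and 171 ± 5.56 FPKM in clementine (log2 change -1.31 ± 0.0474, limma adjusted p = 2.67e-08). Ciclev10008091m had 46.67, 52.74 and 50.31 FPKM in kumquat, against 134.77, 145.07 and 147.88 FPKM in clementine. It was lower in every kumquat library, with a log2 change of -1.50. Ciclev10008100m, the second model, was lower as well, with a log2 change of -0.61. Neither model carried a GO term for the reaction.

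**Figure D3:**
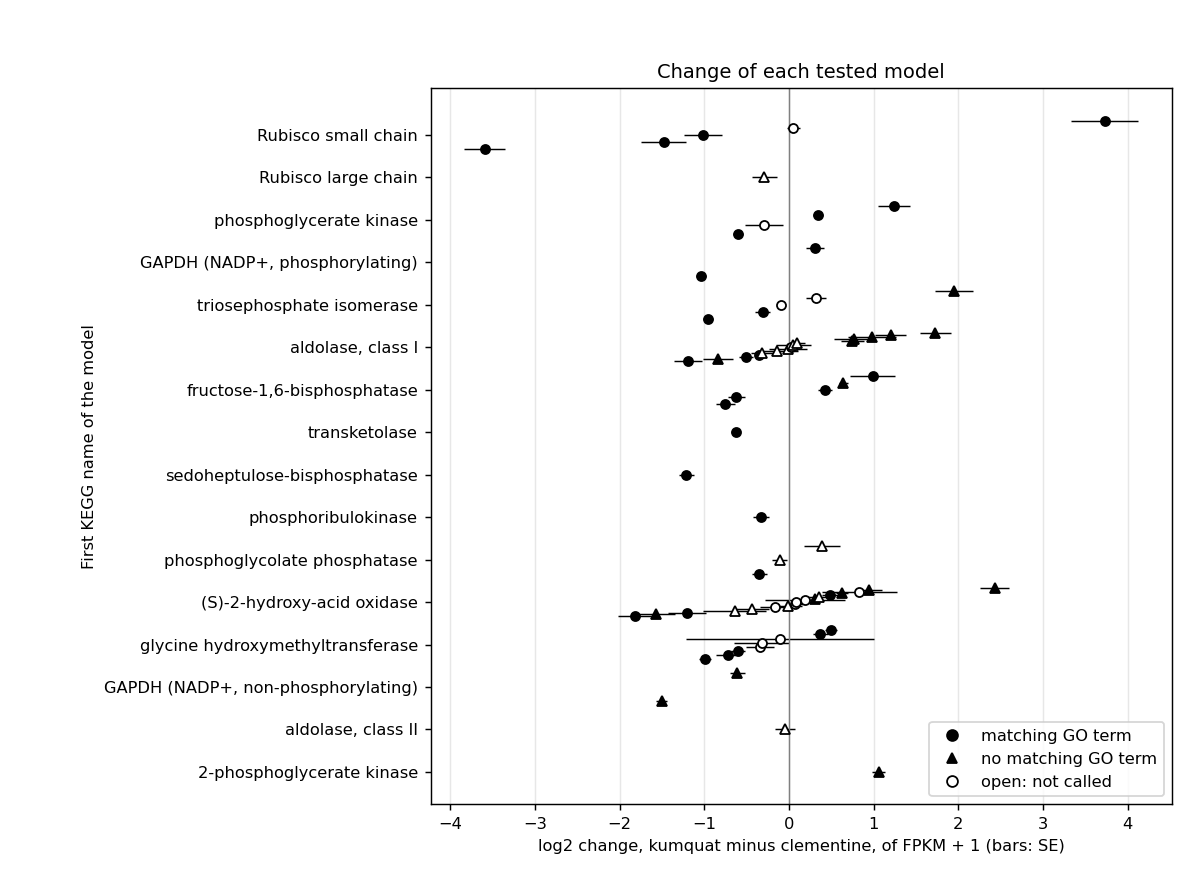
Log2 change, kumquat minus clementine, of FPKM + 1 for each of the 72 tested members by first KEGG name, with bars for the SE, circles for a matching GO term, triangles for none and open symbols for models that were not called. Models of one name spread to both sides of 0, from -3.59 to 3.73 among the small chains, while both non-phosphorylating dehydrogenase models lie left of 0.

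Triose phosphates are interconverted by triosephosphate isomerase and condensed by aldolase, steps that glycolysis shares. The isomerase summed to 699 ± 28.5 FPKM in kumquat and 831 ± 16.1 FPKM in clementine (log2 change -0.25, limma adjusted p = 0.000555). Its most abundant model, Ciclev10029115m, had 275.97, 268.13 and 269.04 FPKM in kumquat, against 293.47, 287.3 and 286.52 FPKM in clementine. The groups did not overlap, but the log2 change of -0.09 was not called (adjusted p = 0.112), and with median scaling it was -0.13 with an adjusted p of 0.0366. Ciclev10028924m was chosen for its size after its values were seen and had 102.63, 104.55 and 110.55 FPKM in kumquat, against 193.27, 213.25 and 213.4 FPKM in clementine. It was lower in every kumquat library (log2 change -0.96, adjusted p = 1.09e-05). Ciclev10022928m, which has no isomerase GO term, went the other way with 23.35, 20.04 and 26.16 FPKM in kumquat, against 3.43, 5.54 and 7.26 FPKM in clementine (log2 change 1.95 ± 0.226, adjusted p = 0.000251). Of the 9 isomerase models, 5 were tested, 2 were lower and 1 higher. Without the locus of Ciclev10028924m, the other models summed to 593 ± 29.7 FPKM in kumquat and 625 ± 27.7 FPKM in clementine. These sums overlap and were not tested.

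Class I aldolase, the usual plant form, summed to 1103 ± 26.4 FPKM in kumquat and 1234 ± 8.85 FPKM in clementine (log2 change -0.16, limma adjusted p = 0.00285). The name was not borne out by the GO terms of most models: 6 of its 27 models had an aldolase GO term and 5 had a best protein match to WAT1-related proteins, named after a membrane transporter. Ciclev10012049m, at rank 94 among all models, had 570.05, 572.27 and 590.07 FPKM in kumquat, against 577.39, 572.22 and 562.65 FPKM in clementine. The values overlapped, and the log2 change was 0.02 (adjusted p = 0.78), or -0.02 with median scaling. The next aldolase models by level were lower in every kumquat library. Ciclev10028594m averaged 249 ± 8.81 FPKM in kumquat and 317 ± 15.7 FPKM in clementine (log2 change -0.35, adjusted p = 0.00139), and Ciclev10017877m averaged 184 ± 18.5 FPKM in kumquat and 262 ± 15.1 FPKM in clementine (log2 change -0.51, adjusted p = 0.00131). Ciclev10013028m, one of the models matched to a WAT1-related protein, had 9.82, 10.57 and 14.08 FPKM in kumquat, against 3.30, 2.18 and 2.77 FPKM in clementine, a log2 change of 1.73. The remaining tested model with the GO term, Ciclev10008762m, was lower with a log2 change of -1.19 (adjusted p = 0.00069). Of the 11 tested models without the term, 5 were called higher and 1 lower, but 2 of the 5, Ciclev10012483m and Ciclev10026240m, were below 1 FPKM in every clementine library and so entered the test through kumquat alone. Class II aldolase, better known from bacteria and fungi, had 1 model, Ciclev10009360m, with 27.99, 35.76 and 34.92 FPKM in kumquat, against 30.04, 33.89 and 38.01 FPKM in clementine, which overlapped without a call (log2 change -0.05, adjusted p = 0.757).

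In the regeneration of the acceptor, sedoheptulose-bisphosphatase, transketolase and phosphoribulokinase were all lower in kumquat. Sedoheptulose-bisphosphatase, which removes a phosphate from the 7-carbon sugar and is specific to the cycle, had 1 model, Ciclev10031765m, with 19.76, 22.96 and 22.24 FPKM in kumquat, against 47.04, 51.79 and 55.1 FPKM in clementine. Each kumquat library was below each clementine library. The log2 change was -1.21 ± 0.0869 (adjusted p = 2.2e-05), and the ratio of means was 0.422. Transketolase, which moves 2-carbon units between sugar phosphates, was represented by Ciclev10018991m with 111.21, 103.84 and 108.98 FPKM in kumquat, against 168.72, 168.05 and 165.53 FPKM in clementine. It too was lower throughout (log2 change -0.63 ± 0.0483, adjusted p = 3.1e-05). Phosphoribulokinase, which makes ribulose-1,5-bisphosphate and is also specific to the cycle, had 1 model. Ciclev10001344m had 30.87, 36.99 and 37.27 FPKM in kumquat, against 47.24, 44.04 and 41.18 FPKM in clementine. The groups did not overlap and the model was called lower (log2 change -0.33 ± 0.0925, adjusted p = 0.0182), with adjusted p-values of 0.058 without clementine replicate 1 and 0.0517 without clementine replicate 2.

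Fructose-1,6-bisphosphatase, which acts in the cycle in plastids and in sucrose synthesis in the cytosol, changed direction with the models counted. All 5 models together had 132 ± 6.91 FPKM in kumquat and 118 ± 3.76 FPKM in clementine and were called higher (log2 change 0.16, limma adjusted p = 0.0247), a call lost with median scaling (log2 change 0.09, adjusted p = 0.163) and without kumquat replicate 2 (0.103) or 3 (0.0624) or clementine replicate 1 (0.0738) or 2 (0.0504). The 4 models with a matching GO term had 57.4 ± 4.01 FPKM in kumquat and 70.4 ± 4.01 FPKM in clementine and were called lower (log2 change -0.29, adjusted p = 0.00432). Without Ciclev10011855m, the 3 others had 33.9 ± 0.960 FPKM in kumquat and 30.4 ± 0.850 FPKM in clementine. Ciclev10015233m, the model without the term, carries a second KEGG name, that of a COMPASS complex component, and had 71.26, 77.06 and 74.34 FPKM in kumquat, against 47.43, 48.08 and 46.4 FPKM in clementine. It alone supplied 56.4% of the sum in kumquat and 40.2% in clementine. Among the models with the term, Ciclev10011855m averaged 23.5 ± 3.05 FPKM in kumquat and 40.1 ± 3.16 FPKM in clementine and was lower (log2 change -0.75, adjusted p = 0.000753), while Ciclev10001734m averaged 20.3 ± 1.14 FPKM in kumquat and 14.8 ± 0.602 FPKM in clementine and was higher (log2 change 0.43, adjusted p = 0.00318).

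The name pattern also brought in 2-phosphoglycerate kinase, which is not an enzyme of either pathway. Its model, Ciclev10027892m, had 45.42, 48.47 and 51.62 FPKM in kumquat, against 21.14, 23.25 and 23.84 FPKM in clementine, a log2 change of 1.06 (limma, adjusted p = 2.34e-05).

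Photorespiration begins with phosphoglycolate phosphatase, which frees glycolate. Its 4 models summed to 42.1 ± 2.22 FPKM in kumquat and 49.1 ± 2.06 FPKM in clementine (log2 change -0.22, limma adjusted p = 0.0128), a call lost without kumquat replicate 2 (0.056) or clementine replicate 3 (0.0568). Ciclev10012021m, the most abundant, had 25.36, 21.91 and 25.13 FPKM in kumquat, against 29.91, 29.95 and 33.44 FPKM in clementine. It was lower in every kumquat library (log2 change -0.35, adjusted p = 0.00933), and the models of the other locus, Ciclev10016051m and Ciclev10016483m, summed to 17.7 ± 1.19 FPKM in kumquat and 17.8 ± 1.06 FPKM in clementine (adjusted p = 0.927).

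The (S)-2-hydroxy-acid oxidase name includes glycolate oxidase, the peroxisomal enzyme that turns glycolate into glyoxylate. Of the 23 models with this name, 5 also carry the name of calcium binding protein 39 in their KEGG entry. Together the 23 models summed to 330.2 ± 3.58 FPKM in kumquat and 307 ± 9.17 FPKM in clementine. The sum was called higher by 0.10 on the log2 scale (limma, adjusted p = 0.0423). Under median scaling the call was lost (log2 change 0.04, adjusted p = 0.373). Leaving out any one library other than clementine replicate 1 also ended the call, with adjusted p-values of 0.056 to 0.152. The 12 models with an oxidase GO term summed to 134 ± 3.22 FPKM in kumquat and 147 ± 2.36 FPKM in clementine and were called lower (log2 change -0.14, adjusted p = 0.0159; 0.0591 without clementine replicate 2). One locus, that of Ciclev10025918m, set this direction: without it the models with the term summed to 126 ± 1.25 FPKM in kumquat and 114 ± 2.69 FPKM in clementine, with every kumquat library above every clementine library. Of the 8 tested models with the term, 2 were lower, 1 was higher and 5 were not called, with a median log2 change of 0.08. One of the 2 lower models, Ciclev10015533m, was below 1 FPKM in every kumquat library and so entered the test through clementine alone. Ciclev10020692m, the most abundant model and one without the term, had 63.89, 67.49 and 66.23 FPKM in kumquat, against 52.98, 54.17 and 51.77 FPKM in clementine, a log2 change of 0.31. Ciclev10025918m, with the term, had 5.34, 8 and 9.27 FPKM in kumquat, against 23.24, 30.67 and 32.81 FPKM in clementine. It was lower in every kumquat library (log2 change -1.82 ± 0.203, adjusted p = 0.000204), and the log2 change of its locus, in which 1 other model is listed at 0 in kumquat, was -2.03. Ciclev10000184m, without the term, had 15.11, 16.26 and 22.81 FPKM in kumquat, against 2.26, 2.72 and 2.46 FPKM in clementine, a log2 change of 2.43. Added to Ciclev10000185m, the other model of its locus, it gave 52.3 ± 6.28 FPKM in kumquat and 48.2 ± 4.94 FPKM in clementine, with overlap and no call (log2 change 0.11, adjusted p = 0.351).

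**Figure D4:**
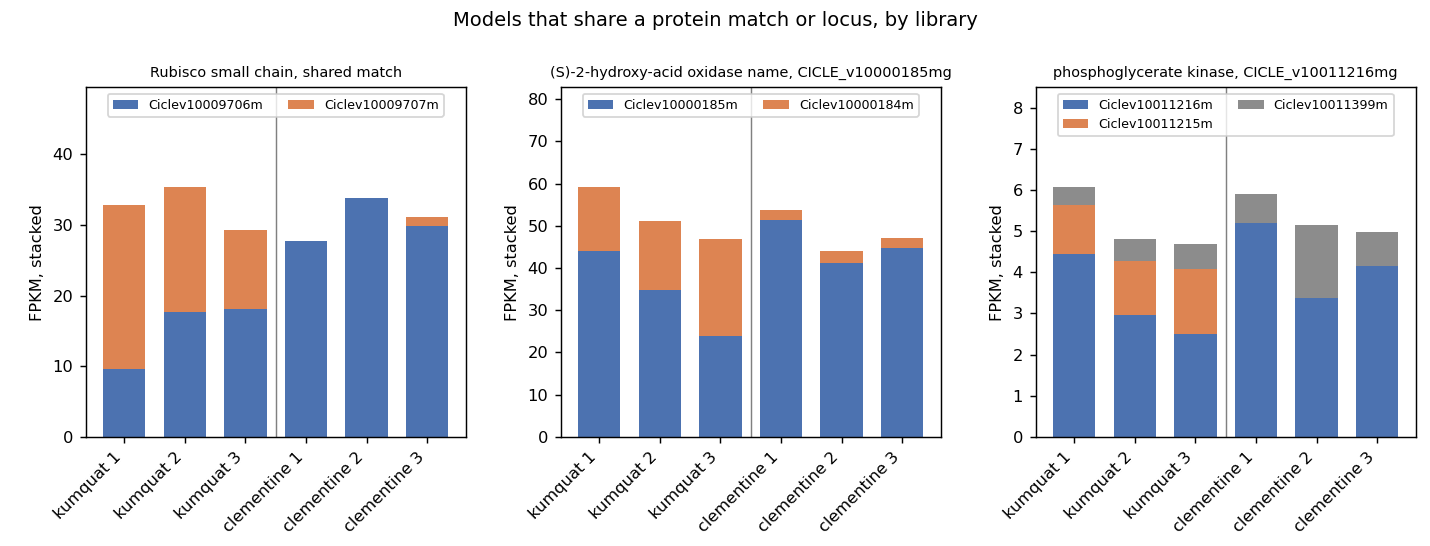
Stacked FPKM by library for 3 sets of member models that share a protein match or locus tag, kumquat libraries left of the line. The pair Ciclev10009706m and Ciclev10009707m changes in makeup between the species while its sum averages 32.5 FPKM in kumquat and 30.9 FPKM in clementine, and the other sets likewise have overlapping sums.

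Shared loci were common among the members. The 102 models fell into 73 loci or protein matches, and 22 of these held 51 members. Where reads of 1 locus were divided among such models, the level of a single model is uncertain and its sum is the firmer value. Of the 73 sums over such a locus or match, 59 were tested and 42 (71.2%) called, 23 lower and 19 higher in kumquat. Each sum took in every model of the locus or match, member or not. The match of Ciclev10009017m, a member too low to be tested, covers 2 models, of which the other is not a member. Its sum was called higher, at 3.84 ± 1.85 FPKM in kumquat and 0.727 ± 0.208 FPKM in clementine. Over the whole table, 64.4% of the 17638 sums tested were called, 30.0% lower and 34.4% higher.

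Glycine hydroxymethyltransferase, which makes serine from glycine in mitochondria during photorespiration and serves one-carbon metabolism in other compartments, was among the largest decreases. Its 11 models summed to 367 ± 17.7 FPKM in kumquat and 578 ± 25.4 FPKM in clementine (log2 change -0.65 ± 0.0490, limma adjusted p = 3.18e-06). Ciclev10004902m, the most abundant, had 224.91, 200.39 and 200.76 FPKM in kumquat, against 442.55, 404.76 and 396.34 FPKM in clementine. Every kumquat library was below every clementine library (log2 change -0.99 ± 0.0688, adjusted p = 1.86e-05). This model held 56.8% of the sum in kumquat and 71.7% in clementine. The next models by level went the other way: Ciclev10019689m averaged 50.0 ± 3.29 FPKM in kumquat and 34.9 ± 1.87 FPKM in clementine (log2 change 0.50), and Ciclev10025372m averaged 41.2 ± 3.90 FPKM in kumquat and 31.6 ± 2.42 FPKM in clementine (log2 change 0.37). Of the 8 tested models, 3 were lower and 2 higher. Without the locus of Ciclev10004902m, the other models summed to 158 ± 4.17 FPKM in kumquat and 163 ± 4.78 FPKM in clementine. These sums overlap and were not tested.

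Enzymes of both pathways outside the member rule were read from a second list of 64 models. Of the 49 tested, 27 (55.1%) were called, 12 lower and 15 higher in kumquat, beside 57.1% of all models, and the median log2 change was 0.00. The glycine decarboxylase complex works beside glycine hydroxymethyltransferase in mitochondria and is made of P, T, H and L proteins. Its P protein model, Ciclev10007310m, averaged 55.2 ± 2.04 FPKM in kumquat and 113 ± 1.54 FPKM in clementine (log2 change -1.02, limma adjusted p = 3.89e-06). The leading T protein model, Ciclev10015433m, averaged 67.2 ± 1.58 FPKM in kumquat and 142 ± 2.29 FPKM in clementine (log2 change -1.07, adjusted p = 2.23e-06). The leading H protein model, Ciclev10017047m, averaged 78.2 ± 6.36 FPKM in kumquat and 176 ± 13.4 FPKM in clementine (log2 change -1.16, adjusted p = 1.92e-05). These 3 leading models were thus all lower in every kumquat library. The leading L protein model, Ciclev10004793m, a dihydrolipoamide dehydrogenase that other mitochondrial complexes use too, averaged 137 ± 3.92 FPKM in kumquat and 127 ± 1.42 FPKM in clementine and was not called (log2 change 0.11, adjusted p = 0.0752). Less abundant models went both ways. The second H protein model, Ciclev10032942m, was lower at 60.1 ± 4.17 FPKM in kumquat and 73.9 ± 2.43 FPKM in clementine (log2 change -0.3, adjusted p = 0.00651). The second T protein model, Ciclev10001270m, was called higher (log2 change 0.45, adjusted p = 0.0279, lost without kumquat replicate 1 or 2 or clementine replicate 3). The second L protein model, Ciclev10004609m, was higher at 40.5 ± 2.08 FPKM in kumquat and 29.6 ± 1.74 FPKM in clementine (log2 change 0.44, adjusted p = 0.00144). The third tested L protein model, Ciclev10004638m, was also called higher, but it was below 1 FPKM in every clementine library and entered the test through kumquat alone.

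**Figure D5:**
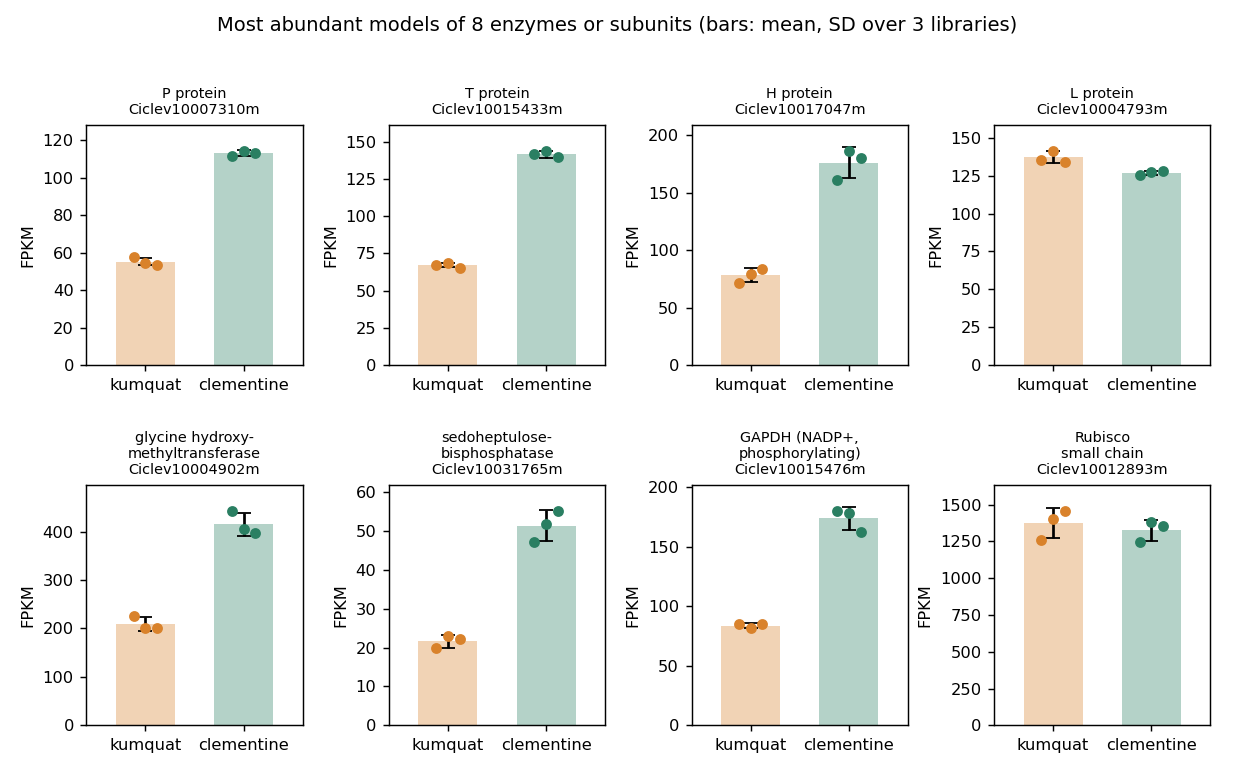
FPKM of the most abundant models of the 4 glycine decarboxylase proteins and of 4 member enzymes, with bars for the mean, error bars for the SD over 3 libraries and a point per library, kumquat left of clementine. The models shown for P, T and H proteins, glycine hydroxymethyltransferase, sedoheptulose-bisphosphatase and NADP+ phosphorylating dehydrogenase are lower in kumquat without overlap. Those of the L protein and the Rubisco small chain were not called. Models were ranked by their mean over all libraries. A second dehydrogenase model, Ciclev10001114m, is not shown and was called higher, at 139 FPKM in kumquat and 111 FPKM in clementine.

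The remaining partner enzymes varied. Catalase, which removes the peroxide made by glycolate oxidase, had the highest log2 change of the list, with Ciclev10000948m at 844 ± 15.9 FPKM in kumquat and 181 ± 3.74 FPKM in clementine (log2 change 2.22 ± 0.0465, limma adjusted p = 1.29e-07). Ribulose-phosphate 3-epimerase, of the regeneration phase, was higher for all 3 of its models, led by Ciclev10021564m at 54.8 ± 4.99 FPKM in kumquat and 44.1 ± 2.77 FPKM in clementine (log2 change 0.31, adjusted p = 0.0158; 0.0541 without kumquat replicate 2). Glycerate kinase, the last enzyme of the photorespiratory pathway, was higher as well, with Ciclev10025569m at 21.4 ± 1.74 FPKM in kumquat and 16.5 ± 1.10 FPKM in clementine (log2 change 0.35, adjusted p = 0.0131; 0.05 without clementine replicate 3). The leading glutamine synthetase model, Ciclev10011785m, was lower, at 236 ± 21.0 FPKM in kumquat and 296 ± 25.4 FPKM in clementine (log2 change -0.33, adjusted p = 0.0149; 0.0558 without clementine replicate 2 and 0.0519 without clementine replicate 3). No call was made for the leading models of serine-glyoxylate aminotransferase (Ciclev10015553m, log2 change -0.14), glutamate-glyoxylate aminotransferase (Ciclev10031388m, 0.05), hydroxypyruvate reductase (Ciclev10026120m, -0.12, named as form 2), ferredoxin-dependent glutamate synthase (Ciclev10004137m, -0.17) and ribose-5-phosphate isomerase (Ciclev10002135m, -0.09). Summed with the models of the same protein match, Ciclev10031388m had a log2 change of -0.29 with an adjusted p of 0.00595. Other models listed under these enzymes differed, and the following were chosen after their values were seen. Of the 8 tested hydroxypyruvate reductase models, 4 were lower and 2 higher. Ciclev10028639m, named as form 1, the peroxisomal form of photorespiration, was lower at 28.2 ± 3.25 FPKM in kumquat and 48.2 ± 6.11 FPKM in clementine (log2 change -0.75, adjusted p = 0.00112). Ciclev10011621m was listed with serine-glyoxylate aminotransferase, but its KEGG name gives alanine-glyoxylate transaminase and no serine-glyoxylate activity. This model was higher at 41.5 ± 2.08 FPKM in kumquat and 10.3 ± 1.51 FPKM in clementine (log2 change 1.92, adjusted p = 6.56e-06). Ciclev10015490m, which has the serine-glyoxylate name, was not called (log2 change -0.25). Ciclev10027961m, a ribose-5-phosphate isomerase, was listed at 0 in all kumquat libraries and averaged 7.34 ± 0.677 FPKM in clementine. The ferredoxin-dependent glutamate synthase model was called lower under median scaling, with an adjusted p of 0.0456.

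Since several members also work in glycolysis, the glycolytic enzymes outside the member rule were counted. Of 59 models 49 were tested, and 13 (26.5%) were lower and 18 (36.7%) higher in kumquat, beside 27.1% and 29.9% of all models tested. Their median log2 change was 0.04, which is that of all models tested. The part of glycolysis in the members' values was not tested. The NAD-type glyceraldehyde-3-phosphate dehydrogenase of glycolysis, a name added after the table had been seen, had 4 models. Ciclev10021037m, the most abundant of them, had 1249.43, 1374.37 and 1409.15 FPKM in kumquat, against 1241.58, 1392.4 and 1391.33 FPKM in clementine, which overlap (log2 change 0.00, limma adjusted p = 0.978). Of the 4 models, 2 were lower in kumquat: Ciclev10032014m had a log2 change of -0.76 and Ciclev10005029m one of -0.30.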

How the data were processed

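Fruit RNA was prepared with TRIzol and DNase I, and a sequencing company made and sequenced the libraries on an Illumina instrument, per the labels' protocols. The authors deposited 1 table of FPKM per gene model with 2 decimals, KEGG and GO annotation and best protein matches, per the file headers. HISAT, StringTie and DESeq2 are named, with no versions or roles, per the submitters' processing notes. The genome build is not given in the sources used here, and coordinates are left out. FPKM are not counts: total depth is unknown, no counting intervals can be given, and a value of 0 can be a failed estimate, so such models are said to be listed at 0.

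Tests covered models that reached 1 FPKM in 3 or more of the 6 libraries and were made in limma 3.58.1 (R 4.3.3) on log2(FPKM + 1), with a mean-dependent prior variance and no covariate. The contrast was kumquat minus clementine, two-sided. A call is a Benjamini-Hochberg adjusted p under 0.05 over the whole fitted table, and fold changes on this scale understate the change of low models. The same fit was made on FPKM summed by first KEGG name, by protein match and by locus tag. The method was tested on simulated data in which few models changed and noise was independent between models. Most models tested were called here, so the simulation does not show how often these calls are wrong. Each p-value measures the spread between these libraries, which may be technical. An exact permutation test of 3 against 3 libraries cannot go below 0.1.

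The members and lists were chosen with earlier results of these data known. The matching GO terms, the locus sums, the sums without the locus of largest difference and the NAD-type and Rubisco-associated names were added after values had been seen, and 2 list patterns that had caught other enzymes were dropped. Models named by rule were the most abundant of each name, members called at 2-fold or more whose mean was 10 FPKM or more in the species with more, members listed at 0 in one species and at 1 FPKM or more throughout the other, and the most abundant model of each partner enzyme. Other models named were picked after their values were seen. Replicate numbers were compared across species and did not meet the criterion set for pairing, a correlation over 0.1 in each pair. Alternatives were a pseudocount of 0.1, no filter, a filter of 5 FPKM, median scaling, a replicate block, no trend in the prior and each library left out.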

Additional observations from a re-analysis of the deposited data

How the results depend on the processing

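Counts of called models and sums stayed within 1.5 times the reported ones under every alternative run. Leaving out each library in turn gave 10046 to 11310 calls over all models, 40 to 45 among members, 27 to 30 among members with a matching GO term, 10 to 12 among the 16 enzyme sums, 10 to 11 among the sums of models with the term, and 23 to 27 among partner enzymes. With the replicate block these counts were 12944, 49, 32, 13, 11 and 31. The labels do not say that the numbers pair the libraries, and the deviations of same-numbered libraries correlated at 0.119, 0.042 and 0.066. Each library correlated best with its own number, which is a hint from the data and not the design. For the 37 named models with a test, 490 of 514 alternatives kept the direction and the side of the threshold, 11 lost a call and 3 gained one. The direction changed in 10, over 5 models, and the cause was not tested except where models were summed. Ciclev10012049m was at -0.02 (log2) with median scaling. Ciclev10009360m ran from -0.13 to 0.06 with a library left out, at 0.06 without kumquat replicate 1 and at 0.03 without clementine replicate 3. Ciclev10031388m ran from -0.13 to 0.21 with a library left out, at -0.00017 without kumquat replicate 1, at -0.13 without clementine replicate 3 and at -0.29 in sums by protein match or locus. Ciclev10009706m was at 0.07 in both sums, and Ciclev10011215m at -0.04 in locus sums. Limits are the 3 libraries per species, the pooled stages that differ in age, the lack of counts, and the division of reads among near-identical models. Levels of both species were also given on a common set of models with Ciclev identifiers. Whether kumquat and clementine reads matched these models equally well was not tested, and unequal matching could shift values or zeros between the species. Most members are annotated by similarity, 95 of 102 with a hypothetical protein as best match.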

Other observations

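Proteins that assist or modify Rubisco were read from names added after values had been seen. The Rubisco accumulation factor, which in plants helps to assemble the enzyme, had 1 model, Ciclev10027647m, with 28.4 FPKM in kumquat and 60.5 FPKM in clementine on average, and it was lower in kumquat (log2 change -1.07 ± 0.0688, limma adjusted p = 1.25e-05). Of 7 models named as Rubisco lysine methyltransferases, 2 were lower (Ciclev10019886m and Ciclev10031325m), 2 were higher (Ciclev10019481m and Ciclev10015703m) and 3 were not called.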
